A study of Saccharomyces cerevisiae with 8 samples.

Results

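The ribosome biogenesis factors described here are the Saccharomyces cerevisiae genes whose symbol consists of UTP, NOP, RRP, NOC or RIX and a number, which gave 58 of the 5449 genes measured. The letters stand for their discovery as U3-associated, nucleolar, rRNA-processing or nucleolar-complex proteins, and RIX genes were found in a screen for defects in making the ribosome. Messenger RNA was measured on 8 Affymetrix yeast arrays, with 2 arrays in each of 4 groups: a parental strain and evolved strains 1, 2 and 3. By the labels the parent was BY4742, a haploid laboratory strain of mating type alpha, and the evolved strains are individual isolates taken after about 450 generations, so that each evolved group is 1 isolate. All groups carried the label of continued exposure to high glucose: 100 ml of complete medium (CM) with 2% glucose and 0.5% ammonium sulfate, 30 °C with aeration, and a daily transfer of 10 µl. The 2 arrays of a group are called biological replicates and are not said to come from separate cultures, so the p-values rest on the spread between the arrays of a group, which may be technical. All 58 members had 1 probe set each and lay above background on all 8 arrays. Levels below are log2 intensities, and differences are differences of log2 intensities with a standard error (SE) from a limma model of all 8 arrays with 4 residual degrees of freedom. Genes with an adjusted p under 0.05 are said to rise, to fall or to be called.

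Neither the arrays labelled parental nor the evolved arrays matched the BY4742 label at LYS2 and MET17. LYS2, deleted in BY4742, read 9.09 and 9.04 on the arrays labelled parental and 11.31 to 11.59 on the evolved arrays. MET17, intact in BY4742, was at most 4.51 and above background on 2 of 8 arrays. URA3, deleted in BY4742, matched the label, at 3.08 to 3.81 and above background on 0 of 8 arrays. LEU2, also deleted in BY4742, read low, at 5.04 to 5.61, but was above background on all 8 arrays. MFA2, a pheromone gene of mating type a, read 12.61 and 12.53 on the arrays labelled parental and 6.79 to 7.14 on the evolved arrays. Of the same type, STE2 read 9.18 and 9.16 against 6.48 to 6.97. MFA1 read 12.36 and 12.35 against 10.25 to 10.76, so it stayed high on the evolved arrays. Of the alpha type, MF(ALPHA)1 read 4.35 and 3.81 against 5.23 to 5.77 and was above background on 6 of 8 arrays. STE3 differed little, at 7.14 and 7.08 against 7.39 to 7.77. The size of the split therefore varied between these genes. On both arrays labelled parental, MFA2 and STE2 exceeded every evolved array and MF(ALPHA)1 was below background, which does not match the alpha type of the label. STE3, of the alpha type, was above background on all 8 arrays. Correlations over all genes were 0.9931 to 0.9958 between different evolved strains and 0.9119 to 0.9235 between an evolved array and one labelled parental. Every difference from parental below is therefore a difference from the arrays labelled parental, and whether it reflects evolution in glucose or another strain background cannot be told apart. The differences among the evolved strains take no level from those 2 arrays, which enter only the estimate of the spread. The 3′ minus 5′ signal of control transcripts, a measure of RNA integrity, was larger on the arrays labelled parental for 5 of 7 controls and on the evolved arrays for 2, with a median evolved minus parental difference of -0.26, and its part in the differences from parental was not tested.

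Ribosomes are assembled in the nucleolus on a long precursor RNA that RNA polymerase I transcribes. The UTP complexes and the U3 small nucleolar ribonucleoprotein (snoRNP) bind its leading part first and build the small-subunit processome, while other factors fold and trim the part that becomes the large subunit and the exosome degrades the removed pieces. In yeast this regulon is known for following growth rate and nutrient supply under the TOR and protein kinase A pathways.

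Against the arrays labelled parental, the members split almost evenly, and several complexes held members of both signs. Of 58 members, 26 rose and 28 fell in the mean of the 3 evolved strains, and 4 were not called. These are 44.8% and 48.3% of the members, against 43.3% and 43.4% of all genes, so the share called was near the background in both directions. Changes of at least 2-fold comprised 8 rises and 4 falls, where 10.9% and 9.95% of all genes rose or fell that far. The median difference was -0.03 for the members and -0.01 for all genes. With strain taken as a random block, 17 members remained called higher and 17 lower, when 28.2% and 28.6% of all genes were. Of the 54 members called in the main fit, 34 were also called in that fit. Among the members named by rule, UTP21, UTP22, RRP12, NOP12 and NOP13 lost their calls, and the other losses were among members not named by rule. In bulk RNA, fewer cells of a type and less RNA per cell cannot be told apart.

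By strain, 29 members were higher and 26 lower in strain 1 (40.6% and 43.9% of all genes), 26 and 27 in strain 2 (42.5% and 42.6%), and 22 and 30 in strain 3 (43.0% and 41.1%). The 3 strain comparisons share the parental arrays. All 6 evolved arrays lay above both parental arrays for 22 members and below both for 27, against 38.2% and 38.9% of all genes. Called with the same sign in all 3 strains were 22 members that were higher and 23 that were lower, against 35.2% and 36.0% of all genes. Called in the mean but not with the same sign in every strain were NOP12, NOP13, UTP13, UTP25, NOP4, NOP10, NOP16, RRP3 and RRP43. The plot of differences by role shows each member in each strain.

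**Figure D1:**
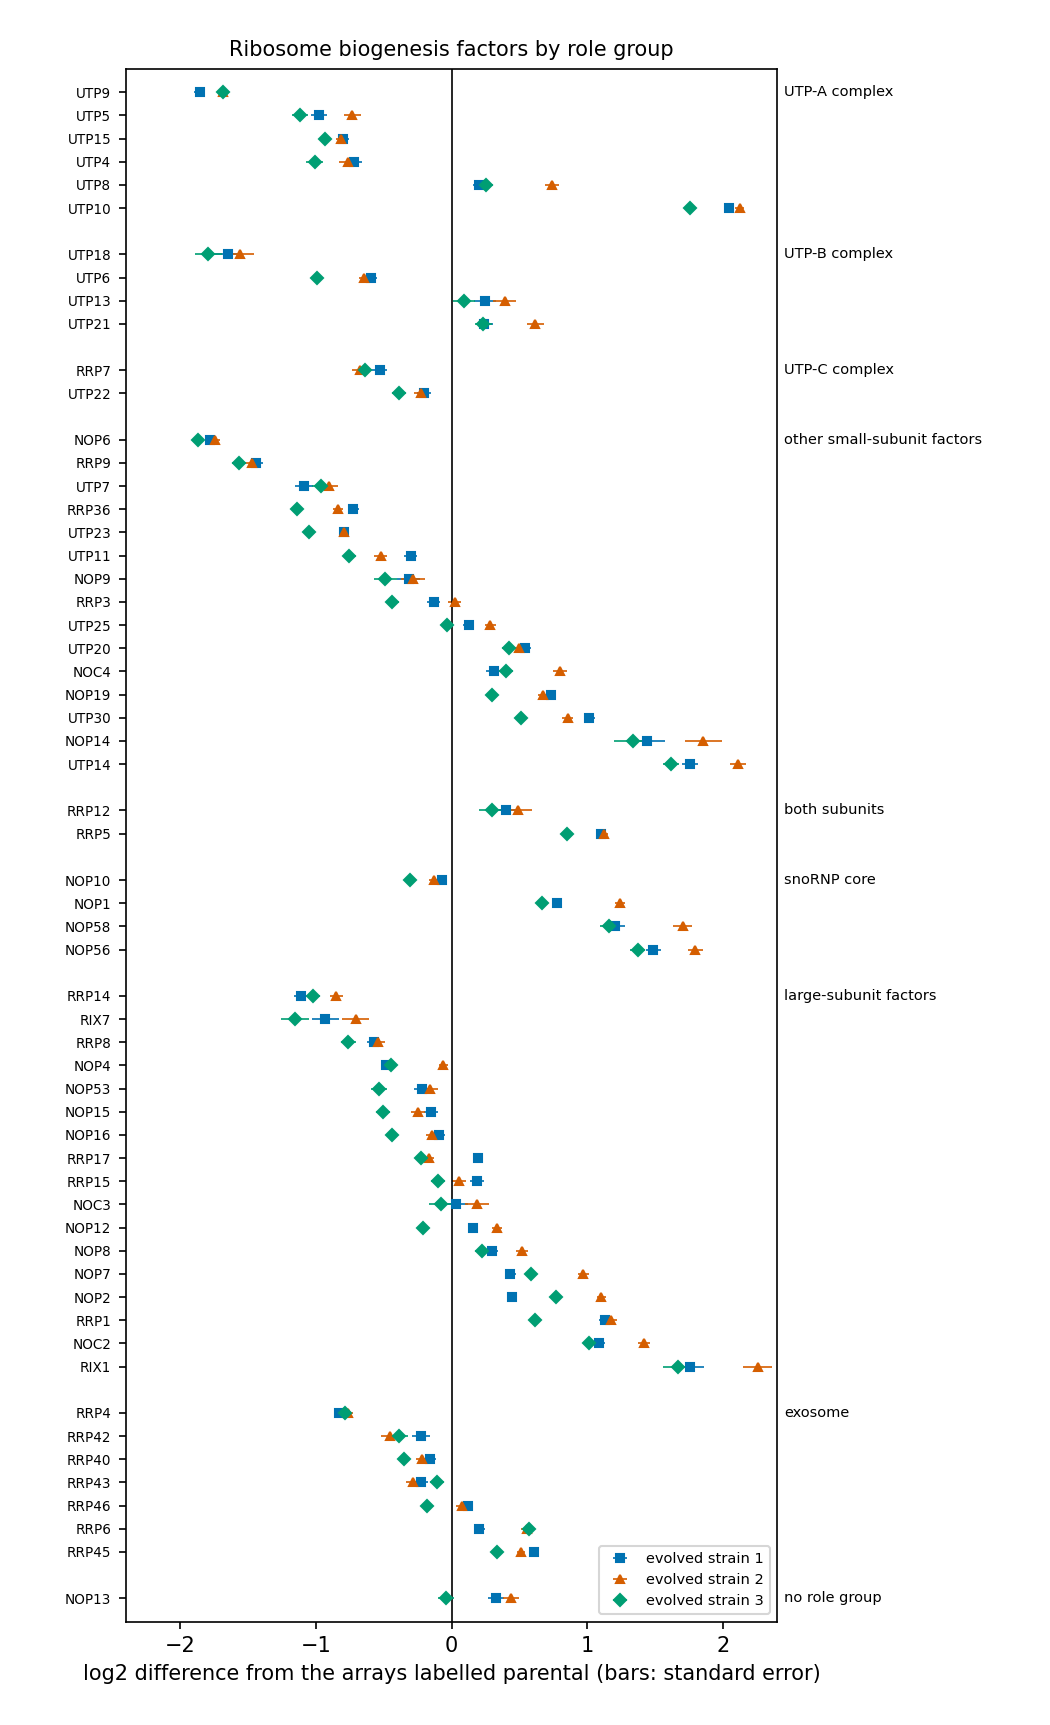
Difference of each of the 58 members from the arrays labelled parental (log2 intensity, horizontal axis) in evolved strains 1, 2 and 3, with members in rows grouped by role; points are limma estimates and bars are ± 1 SE (2 arrays per group). Within the UTP-A complex UTP10 lies near 2 and UTP9 near -1.7, and the points of strain 3 often lie to the left of those of strain 2.

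The UTP-A complex is the first to bind the leader of the precursor RNA, and its 6 members here moved in opposite directions: UTP10 and UTP8 rose, and UTP9, UTP5, UTP15 and UTP4 fell. UTP10, a long helical-repeat subunit, had levels of 8.11 and 8.09 on the arrays labelled parental, 10.12 and 10.17 in strain 1, 10.21 and 10.24 in strain 2 and 9.85 and 9.87 in strain 3. All 6 evolved arrays lay well above both parental arrays, and the difference was 1.98 ± 0.03, a 3.93-fold rise (adjusted p = 6.4e-09). UTP9, a subunit of the same complex, had levels of 9.57 and 9.49 on arrays labelled parental, 7.71 and 7.63 in strain 1, 7.85 and 7.85 in strain 2 and 7.87 and 7.83 in strain 3. The groups did not overlap, in the opposite direction: UTP9 was 3.34-fold lower, at -1.74 ± 0.03 (adjusted p = 2e-08). UTP5 fell with 8.78 and 8.68 on arrays labelled parental, 7.82 and 7.69 in strain 1, 7.99 and 8.01 in strain 2 and 7.66 and 7.57 in strain 3, a difference of -0.94 ± 0.05. The differences of UTP15 and UTP4 were -0.85 ± 0.03 and -0.83 ± 0.05, and UTP8 differed by 0.40 ± 0.04, with 0.74 in strain 2 but 0.20 and 0.25 in strains 1 and 3. NAN1, the subunit also called UTP17, differed by 0.10 ± 0.03 and was called higher.

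The UTP-B complex binds next to the U3 snoRNP and was divided in the same way, with 2 members higher and 2 lower. UTP18, which brings the helicase Mtr4 and the exosome to the processome, had levels of 8.01 and 7.76 on arrays labelled parental, 6.16 and 6.32 in strain 1, 6.23 and 6.42 in strain 2 and 6.07 and 6.12 in strain 3. Its evolved arrays were all lower by more than the gap between any 2 arrays of a group, a 3.17-fold fall (-1.67 ± 0.08, adjusted p = 1.4e-06). UTP6 fell as well, with 8.84 and 8.74 on arrays labelled parental, 8.20 and 8.20 in strain 1, 8.13 and 8.17 in strain 2 and 7.80 and 7.81 in strain 3, and the difference was -0.74 ± 0.03. UTP21 rose by 0.37 ± 0.05, with 8.09 and 7.89 on arrays labelled parental, 8.21 and 8.26 in strain 1, 8.60 and 8.62 in strain 2 and 8.21 and 8.24 in strain 3, so strain 2 stood above the others. UTP13 differed by 0.24 ± 0.07 and its evolved and parental arrays overlapped. PWP2 and DIP2, the subunits also known as UTP1 and UTP12, rose by 0.53 ± 0.03 and 0.94 ± 0.04. Both members of the UTP-C complex fell: RRP7 by 0.61 ± 0.04 and UTP22 by 0.27 ± 0.04, each with no overlap between groups.

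**Figure D2:**
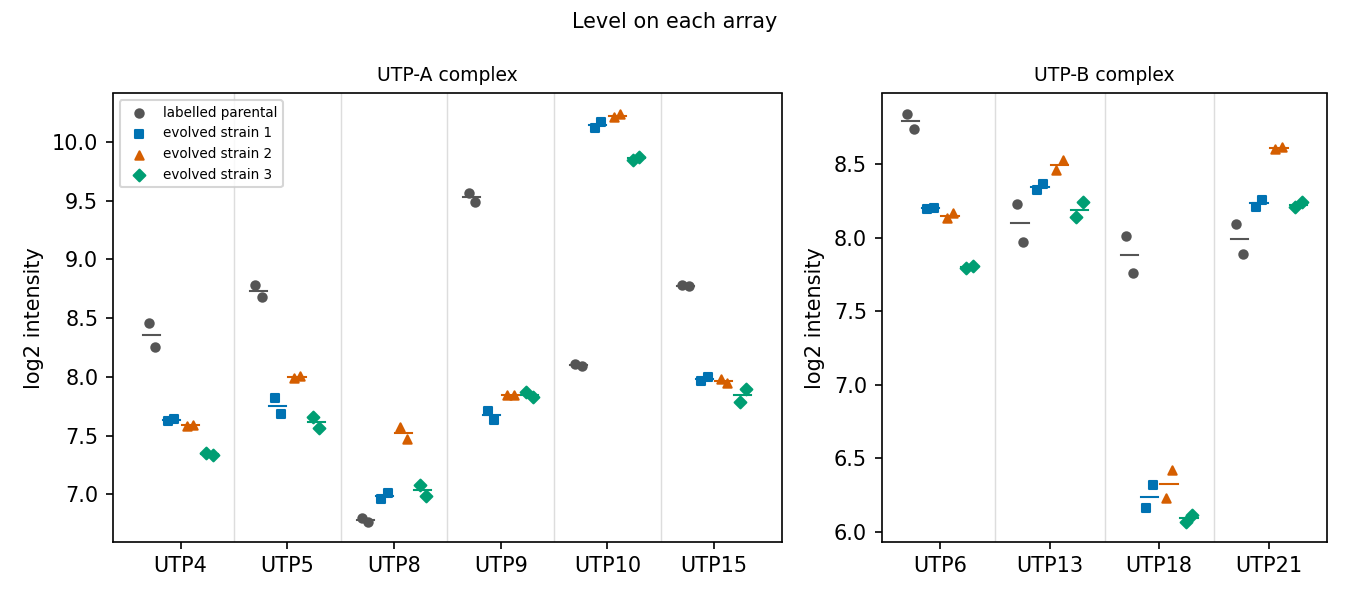
Level on each array (log2 intensity, vertical axis) of members of the UTP complexes in the arrays labelled parental and in evolved strains 1, 2 and 3; points are single arrays and short lines are means of 2 arrays. UTP10 lies above 9.8 and UTP9 below 7.9 on every evolved array, against about 8.1 and 9.5 on the arrays labelled parental.

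The other 15 small-subunit factors gave 7 rises and 8 falls, with a median difference of -0.18. NOP6, an RNA-binding factor of the early precursor, showed the deepest fall of any member, with 10.64 and 10.54 on arrays labelled parental, 8.80 and 8.82 in strain 1, 8.86 and 8.82 in strain 2 and 8.73 and 8.72 in strain 3. The 6 evolved arrays lay between 8.72 and 8.86, and the difference from parental was -1.80 ± 0.03, or 3.48-fold (adjusted p = 1.4e-08). RRP9, the protein specific to the U3 snoRNP, had 8.85 and 8.92 on arrays labelled parental, 7.40 and 7.49 in strain 1, 7.36 and 7.46 in strain 2 and 7.29 and 7.35 in strain 3 and was 2.81-fold lower (-1.49 ± 0.04). UTP7, a repeat protein of the processome, read 8.62 and 8.62 on arrays labelled parental, 7.44 and 7.62 in strain 1, 7.73 and 7.70 in strain 2 and 7.72 and 7.60 in strain 3 and fell by 0.98 ± 0.05. In all 3 genes the evolved arrays stood together below both parental arrays. The remaining falls were those of RRP36 (-0.90), UTP23 (-0.88), UTP11 (-0.53), the RNA-binding repeat protein NOP9 (-0.36) and the helicase RRP3 (-0.18). RRP3 was not called in strain 2, where it differed by 0.02.

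UTP14, which activates a helicase of the processome, was the largest rise in this group, with 7.58 and 7.39 on arrays labelled parental, 9.24 and 9.26 in strain 1, 9.62 and 9.59 in strain 2 and 9.10 and 9.11 in strain 3. Strain 2 was highest and all evolved arrays exceeded both parental ones, a 3.56-fold rise (1.83 ± 0.05, adjusted p = 7.1e-08). NOP14, a core processome factor, rose 2.92-fold (1.54 ± 0.11), with 7.81 and 7.34 on arrays labelled parental, 9.05 and 8.98 in strain 1, 9.41 and 9.45 in strain 2 and 8.95 and 8.87 in strain 3. Its 2 parental arrays differed by 0.462, the widest gap between 2 arrays of a group for any member, yet both lay below every evolved array. NOC4, the partner of NOP14, rose by 0.50 ± 0.04. Smaller rises were those of UTP30 (0.79), NOP19 (0.57), the large repeat protein UTP20 (0.49) and UTP25 (0.13). UTP25 was not called in strain 3, where it differed by -0.03. RRP5 and RRP12, which act on both subunits, rose by 1.03 ± 0.02 and 0.40 ± 0.08. RRP5, which binds on both sides of the cut that separates the subunits, read 9.32 and 9.30 on arrays labelled parental, 10.41 and 10.41 in strain 1, 10.45 and 10.42 in strain 2 and 10.16 and 10.17 in strain 3, so its groups were far apart and strain 3 was the lowest of the evolved strains.

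The 3 members from the core of the box C/D snoRNPs, the particles that methylate ribosomal RNA, all rose, while the member from the box H/ACA particles fell slightly. NOP1, the methyltransferase fibrillarin, had 8.52 and 8.53 on arrays labelled parental, 9.33 and 9.27 in strain 1, 9.74 and 9.79 in strain 2 and 9.21 and 9.17 in strain 3, and rose by 0.89 ± 0.03 or 1.86-fold. NOP56 read 8.01 and 8.16 on arrays labelled parental, 9.56 and 9.59 in strain 1, 9.84 and 9.92 in strain 2 and 9.47 and 9.45 in strain 3 and rose 2.93-fold (1.55 ± 0.04, adjusted p = 9.7e-08). NOP58, its paralogue in the same particle, read 8.35 and 8.13 on arrays labelled parental, 9.46 and 9.44 in strain 1, 9.93 and 9.96 in strain 2 and 9.39 and 9.41 in strain 3 and rose 2.56-fold (1.36 ± 0.06). Each of these genes was highest in strain 2, and no evolved array overlapped a parental one. NOP10, a small subunit of the pseudouridylation (box H/ACA) particle, read 13.41 and 13.40 on arrays labelled parental, 13.37 and 13.30 in strain 1, 13.28 and 13.26 in strain 2 and 13.08 and 13.11 in strain 3, a difference of -0.17 ± 0.03. The partners of these proteins outside the naming rule also differed in sign: SNU13, another core protein of the box C/D particle, differed by -0.87, and of the box H/ACA particle CBF5 and GAR1 rose by 1.02 and 1.07 while NHP2 differed by -0.46.

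**Figure D3:**
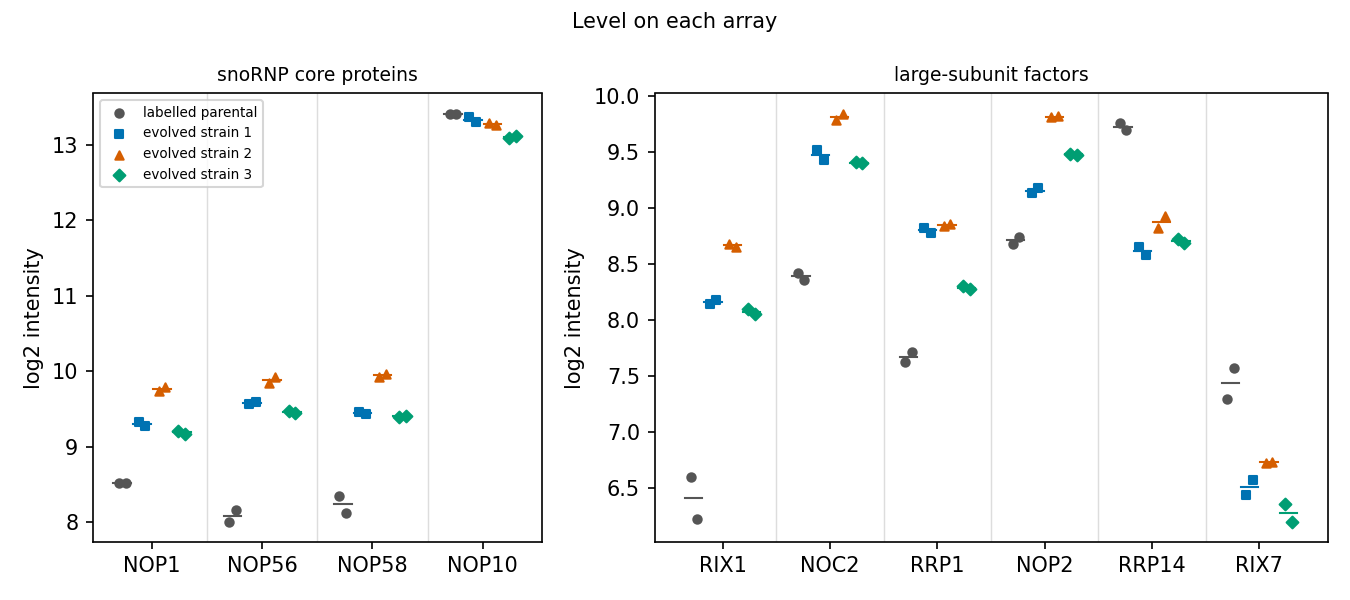
Level on each array (log2 intensity, vertical axis) of the snoRNP core members and of large-subunit members, in the arrays labelled parental and in evolved strains 1, 2 and 3; points are single arrays and short lines are means of 2 arrays. NOP1, NOP56 and NOP58 lie above 9.1 on every evolved array and below 8.6 on both arrays labelled parental, and their highest points are those of strain 2.

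Of the 17 large-subunit factors, 7 rose, 7 fell and 3 were not called, and the median difference was 0.05. RIX1, a subunit of a late nuclear particle complex, read 6.59 and 6.22 on arrays labelled parental, 8.15 and 8.18 in strain 1, 8.68 and 8.65 in strain 2 and 8.10 and 8.05 in strain 3, the strongest rise of the group at 3.72-fold (1.89 ± 0.09, adjusted p = 9.9e-07). Its partners in that complex, IPI1 and IPI3, differed by -1.69 ± 0.04 and -1.23 ± 0.08, so 1 subunit was higher and 2 were lower. RIX1 also stands next to UTP9 on chromosome VIII in the gene order of the R64 annotation, with no protein-coding gene between them, and the neighbours moved in opposite directions. NOC2 rose 2.25-fold with 8.42 and 8.36 on arrays labelled parental, 9.52 and 9.43 in strain 1, 9.78 and 9.84 in strain 2 and 9.41 and 9.40 in strain 3. NOC3, which forms a later complex with NOC2, was not called (0.05 ± 0.07), and its parental arrays at 8.21 and 7.91 spanned those of strain 1, at 8.09 and 8.10, and of strain 3, at 7.97 and 7.99. Leaving out replicate 2 or replicate 1 of the arrays labelled parental turned the NOC3 difference to -0.10 or to 0.20, so its direction rests on single arrays.

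RRP1, an early large-subunit factor, read 7.62 and 7.71 on arrays labelled parental, 8.82 and 8.77 in strain 1, 8.84 and 8.86 in strain 2 and 8.30 and 8.28 in strain 3 and rose by 0.98 ± 0.03. NOP2, a methyltransferase of the large ribosomal RNA, read 8.68 and 8.74 on arrays labelled parental, 9.13 and 9.18 in strain 1, 9.81 and 9.82 in strain 2 and 9.48 and 9.47 in strain 3 and rose by 0.77 ± 0.03. The 3 evolved strains did not overlap each other for NOP2, with strain 1 lowest and strain 2 highest. NOP7 and its complex partners ERB1 and YTM1 rose by 0.66, 0.96 and 1.35, and NOP8 rose by 0.35. RRP14 and RIX7 were the deepest falls: RRP14, needed for making both subunits, read 9.75 and 9.69 on arrays labelled parental, 8.65 and 8.58 in strain 1, 8.82 and 8.92 in strain 2 and 8.72 and 8.69 in strain 3, a difference of -0.99 ± 0.04. RIX7, an ATPase that strips factors from the large-subunit precursor, read 7.30 and 7.57 on arrays labelled parental, 6.44 and 6.57 in strain 1, 6.73 and 6.73 in strain 2 and 6.36 and 6.20 in strain 3, a difference of -0.93 ± 0.08. For both genes all 6 evolved arrays lay below both parental arrays. The other falls were those of the methyltransferase RRP8 (-0.62), NOP4 (-0.33), NOP53 (-0.30), NOP15 (-0.30) and NOP16 (-0.23).

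Among 7 exosome members, 2 rose, 4 fell and 1 was not called. RRP4, an RNA-binding cap subunit, fell by 0.79 ± 0.03, with 10.54 and 10.60 on arrays labelled parental, 9.73 and 9.75 in strain 1, 9.80 and 9.81 in strain 2 and 9.80 and 9.77 in strain 3, and the evolved arrays spanned 9.73 to 9.81. RRP40, also a cap subunit, and the ring subunits RRP42 and RRP43 differed by -0.24, -0.36 and -0.20. RRP45, another ring subunit, rose by 0.49 ± 0.03 with 9.05 and 9.10 on arrays labelled parental, 9.68 and 9.69 in strain 1, 9.58 and 9.60 in strain 2 and 9.40 and 9.42 in strain 3. RRP6, the nuclear exonuclease of the complex, read 9.58 and 9.60 on arrays labelled parental, 9.79 and 9.80 in strain 1, 10.10 and 10.19 in strain 2 and 10.19 and 10.13 in strain 3 and rose by 0.44 ± 0.03. Strain 1 lay between parental and the other evolved strains for RRP6, and highest of all for RRP45. NOP13, a nucleolar RNA-binding protein placed in no role group, was 0.24 ± 0.05 higher in the mean, with strain 3 at 8.58 and 8.59 between the parental values of 8.70 and 8.55.

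For 3 members, the strains were called in opposite directions against parental, where 3.4% of all genes were. NOP12, an RNA-binding large-subunit factor, read 8.29 and 8.21 on arrays labelled parental, 8.41 and 8.42 in strain 1, 8.58 and 8.60 in strain 2 and 8.05 and 8.04 in strain 3, so strains 1 and 2 lay above both parental arrays and strain 3 below both. RRP17, an exonuclease of the large-subunit precursor, read 10.49 and 10.55 on arrays labelled parental, 10.74 and 10.70 in strain 1, 10.34 and 10.37 in strain 2 and 10.32 and 10.27 in strain 3, with strain 1 above and strains 2 and 3 below. RRP46, an exosome ring subunit, read 9.98 and 9.99 on arrays labelled parental, 10.08 and 10.13 in strain 1, 10.04 and 10.07 in strain 2 and 9.84 and 9.77 in strain 3, and was called higher in strain 1 (0.12 ± 0.04) and lower in strain 3 (-0.18 ± 0.04). The differences of the mean of the strains were 0.10 ± 0.03 for NOP12, -0.06 ± 0.03 for RRP17 and 0.01 ± 0.03 for RRP46. RRP15 was not called in the mean (0.05 ± 0.04), with 10.85 and 10.70 on arrays labelled parental, 10.97 and 10.96 in strain 1, 10.82 and 10.83 in strain 2 and 10.65 and 10.69 in strain 3. Only strain 1 lay above both parental arrays for RRP15, and strain 3 lay below both. The calls of NOP12 and RRP17 depended on the scaling: with arrays centred on their medians NOP12 was no longer called (0.04) and RRP17 was called lower (-0.12).

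Among the evolved strains, strain 3 had lower levels than strain 2 for most of these genes. Of 58 members, 39 were called lower in strain 3 than in strain 2 and 1, RRP43, was called higher, against 14.5% of all genes called lower and 17.5% higher. The differences ranged from -0.59 to 0.17, with a median of -0.28 for the members and 0.02 for all genes, and 54 of the 58 were below 0. Both strain 3 arrays lay below both strain 2 arrays for 52 members, or 89.7%, against 32.7% of all genes, and above both for 2, against 43.4%. The median level of the 58 members was 9.12 and 9.15 on the strain 2 arrays and 8.77 and 8.75 on those of strain 3, while the median of all genes was 9.62 and 9.64 on the former and 9.62 on each of the latter. The 3′ minus 5′ signal of the control transcripts was larger on both strain 3 arrays than on both strain 2 arrays for 2 of 7 controls, TDH1 and WBP1, and overlapped for the other 5, and its part in this difference was not tested. In a fit of the 6 evolved arrays alone, 46 members were lower, when 20.7% of all genes were. No difference between these strains reached 2-fold for any member, and 0.0734% and 0.165% of all genes were higher or lower by that much.

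**Figure D4:**
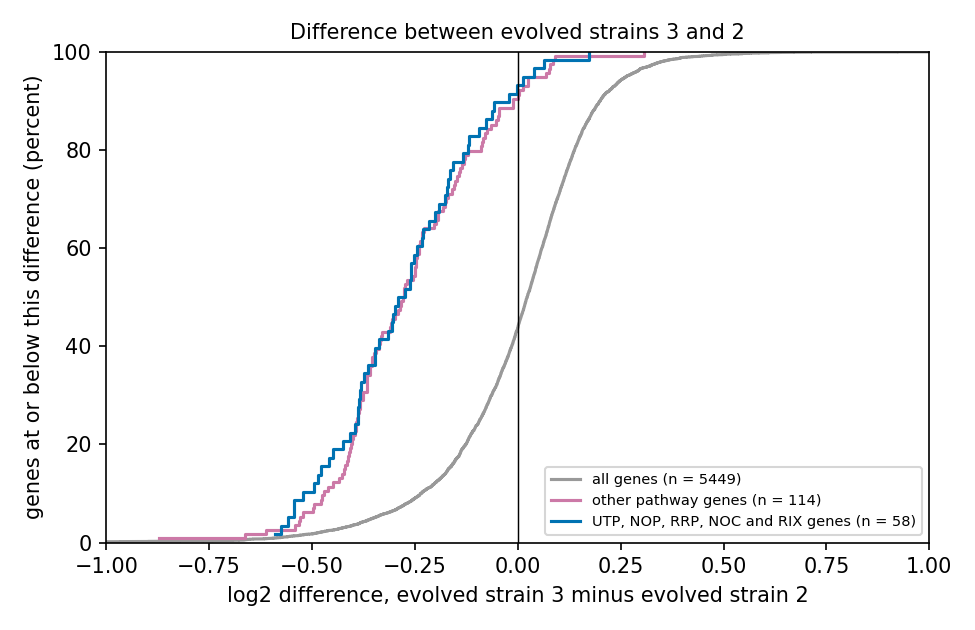
Cumulative share (percent, vertical axis) of all 5449 genes, of 114 other ribosome biogenesis genes and of the 58 members by their strain 3 minus strain 2 difference (log2 intensity, horizontal axis, drawn from -1 to 1). The curve of the members crosses its middle at -0.28 and that of the other pathway genes at -0.28, while that of all genes crosses at 0.02.

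By role, the members called lower in strain 3 than in strain 2 were 4 of 6 in UTP-A, 3 of 4 in UTP-B, 10 of 15 other small-subunit factors, 4 of 4 snoRNP proteins, 14 of 17 large-subunit factors, 2 of 7 exosome subunits and neither UTP-C subunit. Of all genes, 14.5% were called lower in this comparison, and differences between these groups were not tested. The median difference was -0.34 for the large-subunit factors and -0.02 for the exosome. RIX1 differed most, at -0.59 ± 0.11 (adjusted p = 0.0091), followed by NOP1 at -0.57 ± 0.04, RRP1 at -0.56 ± 0.04, NOP12 at -0.54 ± 0.04 and NOP58 at -0.54 ± 0.07. Genes on either side of the split from parental took part: UTP10, which was higher than parental, differed by -0.37 ± 0.03, and UTP5 and UTP6, which were lower, by -0.39 ± 0.06 and -0.35 ± 0.04. UTP9 was not called, at -0.00098 ± 0.04, nor were RRP4 (-0.02 ± 0.03), RRP6 (0.01 ± 0.04) and RRP7 (0.04 ± 0.05). RRP43 was 0.17 ± 0.05 higher in strain 3 (adjusted p = 0.041), a call lost after quantile normalisation.

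Strain 1 had the lowest of the 3 strain means for 10 of the 58 members and the highest for 20. Of all 5449 genes it was lowest for 2473 and highest for 1789. Between strains 2 and 1, 21 members were higher in strain 2 and 5 lower, against 29.8% and 22.9% of all genes. Centring the arrays made this 17 and 14, and quantile normalisation 17 and 8. Between strains 3 and 1, 4 were higher in strain 3 and 27 lower, against 33.1% and 24.4% of all genes, and centring made this 3 and 38. NOP2 (0.66), NOP7 (0.54), UTP8 (0.54) and NOP58 (0.50) were among those higher in strain 2 than in strain 1. UTP30 (-0.50) and RRP1 (-0.51) were among those lower in strain 3 than in strain 1. The lowest of the 3 strain means was that of strain 3 for 45 members, or 77.6%, against 26.7% of all genes, and the highest was that of strain 2 for 36, or 62.1%, against 28.3%. A moderated F test in limma called a difference among the 3 strains for 48 members, against 68.9% of all genes.

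The other genes of the pathway, 114 in a list of processome, large-subunit, snoRNP, exosome and regulatory genes, were described in the same way. Against parental 57 rose, 46 fell and 11 were not called, with a median difference of 0.10. These are 50% and 40.4% of the list, against 43.3% and 43.4% of all genes, near the background. URB1, a large-subunit factor, rose most, 6.1-fold (2.61 ± 0.04), followed by the small-subunit factor MRD1 (1.37 ± 0.03) and by YTM1 (1.35 ± 0.08). CGR1 fell most, 6.97-fold (-2.80 ± 0.05), followed by SYO1, an importer of ribosomal proteins (-1.74 ± 0.05), and MRT4 (-1.72 ± 0.04). Between strain 3 and strain 2, 81 of the 114, or 71.1%, were lower and 1 higher, against 14.5% and 17.5% of all genes, with a median of -0.28. Both strain 3 arrays lay below both strain 2 arrays for 96 of them, or 84.2%, against 32.7% of all genes. Of the exosome genes and cofactors 2 of 7 were lower, beside 4 of 6 snoRNP, 30 of 39 small-subunit and 44 of 54 large-subunit genes; these subgroup differences were not tested. The gene called higher was TOR1, the kinase that promotes ribosome synthesis, at 0.31 ± 0.05, and of the 8 regulators 1 was lower.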

How the data were processed

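Per the submitters' processing notes the authors used RMA (version not given in the sources used here), a method that subtracts background, equalises the arrays' distributions and combines the probes of each set. The deposited intensity values were linear, so log2 was taken here with no pseudocount. Per the labels 100 ng of total RNA was turned into biotinylated cRNA. Of 10928 probe sets, the platform annotation named 1 S. cerevisiae gene for 5498, several for 1 and another yeast species for 1746, and 3683 were not listed. The brightest probe set stood for each of 47 genes with several. Symbols were updated for 12 genes, none a member, from the R64 annotation, used only for names and gene order. Background was the 95th percentile of other-species probe sets (4.27 to 4.40, log2). With 2 arrays per group, their number limits the precision. limma 3.58.1 (R 4.3.3, statmod 1.5.0) fitted 1 coefficient per group to 8 arrays, with 4 residual and 2.52 prior degrees of freedom. P-values were adjusted by Benjamini-Hochberg over 5449 genes within a contrast. The script was tested on simulated data. The members and lists were chosen with earlier results of these data known. Named were, per role group, the 3 largest differences from parental, the 8 largest falls, the 6 widest ranges among evolved strains, members called in opposite directions, those not called, and the 3 largest rises and falls of the other pathway genes. Other genes, including complex partners, were chosen after their values were seen. Alternatives were other scalings, a pseudocount of 16, a background filter, averaged probe sets, robust moderation, blocks, and each array left out. Promoter motifs were not analysed here.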

Additional observations from a re-analysis of the deposited data

Results flagged for a closer look

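The strain differences from parental were not the same in the 3 evolved strains for 48 members, by limma's moderated F test among the strains. These are 82.8% of the members, against 68.9% of all genes. For each of them the range between its highest and lowest strain difference is given on the log2 scale. Among subunits of the UTP complexes it was 0.536 for UTP8, 0.398 for UTP6, 0.386 for UTP5, 0.384 for UTP21, 0.365 for UTP10, 0.302 for UTP13, 0.289 for UTP4, 0.182 for UTP22, 0.175 for UTP9 and 0.135 for UTP15. Among other small-subunit factors it was 0.523 for NOP14, 0.503 for UTP30, 0.495 for UTP14, 0.489 for NOC4, 0.46 for RRP3, 0.453 for UTP11, 0.435 for NOP19, 0.417 for RRP36, 0.317 for UTP25 and 0.258 for UTP23. For the snoRNP proteins it was 0.575 for NOP1, 0.544 for NOP58, 0.424 for NOP56 and 0.231 for NOP10. Among large-subunit factors it was 0.66 for NOP2, 0.59 for RIX1, 0.56 for RRP1, 0.545 for NOP12, 0.54 for NOP7, 0.449 for RIX7, 0.425 for NOP4, 0.424 for RRP17 and 0.407 for NOC2. It was smaller for NOP53 (0.374), NOP15 (0.354), NOP16 (0.345), NOP8 (0.298), RRP15 (0.292), RRP14 (0.261) and RRP8 (0.217). Among exosome subunits it was 0.365 for RRP6, 0.298 for RRP46, 0.273 for RRP45, 0.226 for RRP42, 0.191 for RRP40 and 0.174 for RRP43, and it was 0.479 for NOP13 and 0.273 for RRP5. Strain 3 had the lowest mean in 38 of the 48, strain 1 in 8 (NOC4, NOP2, NOP4, NOP7, RRP14, RRP6, UTP8 and UTP9) and strain 2 in RRP42 and RRP43. Over all genes, called or not, the lowest mean was that of strain 3 for 26.7%.

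The array also carries 17 control probe sets for ribosomal RNA, which no comparison above uses. For 4 of them, all on the 18S RNA, every evolved array lay above both arrays labelled parental. For 10 every evolved array lay below, and 3 overlapped. Of all genes, 38.2% lay above and 38.9% below in this way. The remaining 18S probe sets were among those below, so the sign differed between probe sets of the same RNA. Of the 18S sets named by position, the 3′ set differed by 1.23, the middle set by -0.46 and the 5′ set by -0.34. The cause of this was not tested. For the 18S probe sets that were higher, the parental arrays lay far apart, at 6.87 and 8.07 for AFFX-18srRnae_at.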

How the results depend on the processing

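With strain as a random block, 17 members were called higher and 17 lower against parental, where the main fit called 54. Of the members named by rule, NOP12, NOP13, RRP12, UTP21 and UTP22 lost their calls. The median difference of the members from parental was -0.088 with arrays centred, -0.057 after quantile normalisation and -0.069 to -0.019 without 1 array. Members lower in strain 2 than in strain 1 numbered 14 when centred, 8 after quantile normalisation, 8 with evolved arrays only, a fit chosen after seeing the data, and 1 to 8 without 1 array, where any array of strains 1 or 2 or labelled parental mattered. Members higher in strain 3 than in strain 1 numbered 2 after quantile normalisation and 2 to 5 without 1 array, 2 without replicate 1 of strain 3. RRP43, the member higher in strain 3 than in strain 2, lost its call in limma after quantile normalisation and with the replicate number as a block (0 members, and 1 at an unadjusted p under 0.05 in each), and the count was 0 to 1 without 1 array. Members lower in strain 3 than in strain 2 numbered 29 to 46 without 1 array. The replicate block gave 37; replicate numbers do not pair the samples, as differences between replicates correlated at -0.12 to 0.03 between groups. The NOC3 difference was -0.10 to 0.20 without 1 array, and reversed, to -0.10, without replicate 2 of the arrays labelled parental. NOP12 lost its call under 5 settings, and RRP17 (3), RRP15 (1) and NOC3 (1) gained one. The cause of these shifts was not tested. For single named members, 513 values under alternatives were counted as unchanged, 5 gained a call, 9 lost it and 1 reversed. Small changes of sign near 0 were not all counted as reversed. Without 1 array the RRP15 difference was -0.030 to 0.124 and that of RRP46 -0.005 to 0.017.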

Other observations

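Of 7 pairs of members with at most 3 protein-coding genes between them in the gene order of the R64 annotation, 3 had differences from parental of the same sign and 4 of opposite sign, UTP9 and RIX1 among the latter. RRP15 and NOC4, with no protein-coding gene between them on chromosome XVI, differed from parental by 0.05 and 0.50. NOP8 and RRP40 on chromosome XV, with 1 gene between them, differed by 0.35 and -0.24, and RRP6 and UTP23, with 2 genes between, by 0.44 and -0.88. With 3 genes between, RRP8 and RRP1 on chromosome IV differed by -0.62 and 0.98, while RRP4 on chromosome VIII, at -0.79, had the sign of RRP3 (-0.18) and NOP10 (-0.17) on either side.

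The regulators of the pathway differed from parental in both directions. TOD6, a repressor of ribosome biogenesis genes, differed by -1.28, and its paralogue DOT6 by -0.39. The activator SFP1 was 0.52 higher, the kinases TOR1 and SCH9 0.83 and 0.25, STB3 0.24 and IFH1 0.23, and FHL1 was not called at 0.19.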
